A study of Mus musculus with 4 samples.

Results

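E2F transcription factors and the pocket proteins that bind some of them were followed as a group of 10 genes, chosen by symbol. They were the 8 E2F genes E2f1 to E2f8 and the 2 pocket protein genes Rb1 and Rbl1. All 10 were found by gene identifier among the 50600 genes of the files. The libraries came from mouse T cells, strain C57BL/6NJ, labelled as primary cells. They form 1 group of 4 biological replicates, with no second condition, genotype or time. The file headers add the words Th0, activated and sorted and a time of 72 h for every library, while the agents used for activation are not given in the sources used here. One donor entry is shared by all 4 libraries, and nothing says that they came from separate animals or cultures, so each spread below is a spread between these libraries and may be technical.

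E2F proteins bind DNA at the promoters of genes for DNA replication and cell division. E2f1 to E2f6 do so as dimers with a DP protein (Tfdp1 or Tfdp2), whereas E2f7 and E2f8 carry a pair of DNA-binding domains each and need no DP partner. In resting cells the pocket proteins hold the E2F factors they bind in an inactive or repressing state. Cyclin D and cyclin E kinases phosphorylate the pocket proteins when a cell enters division, as T cells do after activation, and E2F target genes are then transcribed.

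Total counts ran from 34978213 to 118937382 read pairs, with replicates 1 and 3 the smallest. The labels name the assay as total RNA, whereas the name of a linked protocol says polyA, so which RNA was selected is uncertain. All 10 T cell markers, Cd3e, Cd4 and Trac among them, exceeded 1 TPM (a level corrected for gene length and library size) in every library, and their sum was 8969 to 9521. Summed levels of the other marker lists were far lower: 17.5 to 29.5 for the 2 CD8 genes, 0.796 to 2.75 for 5 B cell genes, 1.85 to 3.49 for 6 myeloid genes, 3.92 to 6.10 for 3 NK genes, 1.78 to 2.60 for 5 erythroid and platelet genes and 7.32 to 7.92 for 5 stromal and epithelial genes. Lyz2, S100a8, Hbb-bs, Ppbp and Cdh5 were at 0 counts in all 4 libraries. Other genes of these lists reached 1 TPM in every library. They were Cd8b1 at 17.5 to 29.2, Eomes at 3.69 to 5.67, Epcam at 3.17 to 3.47 and Pdgfrb at 2.72 to 3.44. Itga2b at 1.543 to 1.875 and Adgre1 at 1.096 to 1.802 did so too, and no B cell gene did. Cd8a stood at 0.0636 to 0.5115 TPM, so the CD8 sum was mostly Cd8b1.

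Several E2F and pocket protein genes are themselves classed as E2F targets, so their start regions were searched for the words TTTCCCGC, TTTCGCGC, TTTGCCGC and TTTGGCGC, which make up the textbook E2F site, and for TTTGAA, the core of the element bound by Lin54 of the MuvB complex. The windows were 300 bases from RefSeq (build GRCm38.p6), 250 before and 50 from each gene start on, read on both strands. Of the 10 genes, 7 had a window. E2f4, E2f5 and Rb1 had none. An E2F word stood in a window of 4 of these 7 genes and TTTGAA in 3 of 7, while 2.60% of all 27025 genes with a window held an E2F word and 20.2% held TTTGAA. Among the 8692 of these genes that were protein-coding and at 1 TPM or more in every library, the share with an E2F word was 5.00%. The matches are shown in 30 bases with the word in capitals, since they place the E2F words relative to the start of each gene.
E2f2, E2F word 40 bases into the transcript, chr4:136172294-136172323, plus strand: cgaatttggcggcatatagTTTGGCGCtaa
E2f3, E2F word 11 bases before the start, chr13:29986056-29986085, minus strand: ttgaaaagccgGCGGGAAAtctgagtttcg
E2f7, E2F word 198 bases before the start, chr10:110745230-110745259, plus strand: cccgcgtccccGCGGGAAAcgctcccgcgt
Rbl1, E2F word 18 bases before the start, chr2:157204534-157204563, minus strand: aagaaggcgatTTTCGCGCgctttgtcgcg
E2f3, TTTGAA 23 bases before the start, chr13:29986068-29986097, minus strand: tgcaaatatggTTTGAAaagccggcgggaa
E2f8, TTTGAA 20 bases before the start, chr7:48881598-48881627, minus strand: agcgggttaatTTCAAAtcgggggctggac

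One RefSeq start of E2f3, 395 bases before the annotated gene, held both words within a few bases of each other and of that start. The window of a second E2f3 start, 1277 bases inside the annotated gene, held neither. In E2f3, E2f7 and E2f8 the word shown here was read on the opposite strand of the gene, except for TTTGAA of E2f3. The RefSeq start of E2f2 with the E2F word lies 120 bases before the annotated gene, so that word lies outside the annotated gene. A second RefSeq start of E2f2, 8388 bases inside the annotated gene, had a TTTGAA in its window. The E2f1 entry starts 466 bases inside the annotated gene, and neither kind of word was in its window or in that of E2f6. A match describes letters only, and binding was not measured.

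The classical activators E2f1, E2f2 and E2f3 drive entry into S phase. E2f2 (chromosome 4, 136172394 to 136196057, plus strand, mm10) stood at 55.9, 66.8, 73.9 and 68.5 TPM in replicates 1 to 4, a mean of 66.3 ± 7.55 (SD, n = 4). E2f1 (chromosome 2, 154559407 to 154569892, minus strand) stood at 55.7, 60.0, 60.3 and 58.0 TPM, a mean of 58.5 ± 2.14. The values of these 2 genes met in replicate 1 and parted in the others. E2f3 (chromosome 13, 29906575 to 29985668, minus strand) lay lower, at 33.8, 34.7, 37.0 and 32.7 TPM, a mean of 34.5 ± 1.84, and overlapped neither of the other activators. Counts per gene add up the long and short forms of E2f3, which begin at different starts. In bulk RNA, fewer cells that use a gene and less RNA per cell cannot be told apart, and this holds for each level given here.

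E2f4 and E2f5 act mainly as repressors with the pocket proteins Rbl1 and Rbl2, E2f4 being the E2F of the DREAM complex. E2f4 (chromosome 8, 105297663 to 105305370, plus strand) was by far the most abundant of the 10, with 271.4, 319.5, 306.4 and 304.8 TPM, a mean of 300.5 ± 20.5 (SD, n = 4). Its mean exceeded that of 95.2% of the 10868 protein-coding genes at 1 TPM or more in every library. E2f5 (chromosome 3, 14578641 to 14606309, plus strand) had 22.5, 29.2, 22.2 and 23.4 TPM, a mean of 24.3 ± 3.30, with replicate 2 above the other 3. E2f5 also had the fewest counts of the 10, from 453 to 1896 per library, so counting alone gives an error of up to 4.70% of its value. E2f4 exceeded E2f5 by 3.63 ± 0.15 as log2 of TPM + 0.1, in 4 of 4 libraries (exact two-sided sign-flip permutation p = 0.13, the smallest that 4 libraries can give).

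E2f6 lacks the activation domain and works as a repressor in the Polycomb complex PRC1.6. It (chromosome 12, 16810965 to 16826743, plus strand) stood at 41.3, 42.9, 42.1 and 46.1 TPM, a mean of 43.1 ± 2.11 (SD, n = 4). E2f7 and E2f8, the atypical repressors that limit E2F targets late in S phase, differed from each other. E2f8 (chromosome 7, 48866429 to 48881596, minus strand) stood at 34.96, 40.3, 40.3 and 40.7 TPM, a mean of 39.1 ± 2.74, with replicate 1 below the other 3. E2f7 (chromosome 10, 110745439 to 110787384, plus strand) was the lowest of the 10, at 8.87, 8.86, 10.8 and 9.46 TPM, a mean of 9.49 ± 0.896. E2f8 exceeded E2f7 by 2.03 ± 0.13 log2, in 4 of 4 libraries (exact permutation p = 0.13), and 21.4% of the expressed protein-coding genes had a lower mean than E2f7.

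Among the pocket proteins, Rb1, the retinoblastoma protein that restrains the activator E2Fs, and Rbl1, or p107, which binds mainly E2f4, had levels close to each other. Rb1 (chromosome 14, 73183673 to 73325822, minus strand) stood at 34.1, 35.01, 32.4 and 31.7 TPM, a mean of 33.3 ± 1.52 (SD, n = 4). Rbl1 (chromosome 2, 157145893 to 157204534, minus strand) stood at 30.5, 30.8, 31.3 and 32.04 TPM, a mean of 31.2 ± 0.659. Rb1 was the higher in replicates 1 to 3 and Rbl1 in replicate 4. With the length of the longest annotated transcript, Rb1 was the higher in 4 of 4 libraries, by 0.16 log2 (exact permutation p = 0.13). The remaining pocket protein Rbl2, or p130, which is not among the 10, stood at 35.7, 42.2, 40.7 and 38.1 TPM and exceeded Rbl1 by 0.33 ± 0.11 and Rb1 by 0.23 ± 0.11 as log2 of TPM + 0.1 in 4 of 4 libraries (exact two-sided sign-flip permutation p = 0.13 each). Shares of the summed pocket protein level were 37.8% ± 1.66 for Rbl2, 32.2% ± 1.38 for Rb1 and 30.1% ± 1.23 for Rbl1. These shares are given for exonic length only, and each SD covers the libraries and not the choice of length.

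Of the 2 DP genes, Tfdp1 had the higher RNA level. Tfdp1 stood at 264.2, 292.2, 289.1 and 279.7 TPM and Tfdp2 at 12.6, 12.02, 12.04 and 11.8 TPM, a log2 difference of 4.53 ± 0.10 in 4 of 4 libraries (exact two-sided sign-flip permutation p = 0.13). The difference was 2.60 with no correction for length. E2f4 exceeded Tfdp1 by 0.09 ± 0.04 in 4 of 4 libraries (exact permutation p = 0.13), a direction that turned to -0.49 without correction for length. With the length of the longest annotated transcript, the mean of Tfdp2 was 18.4 in place of 12.1 TPM. E2f1 to E2f6 together came to 480.5, 553.1, 541.7 and 533.4 TPM and the DP genes together to 276.8, 304.2, 301.1 and 291.5 TPM, a ratio of 1.80 ± 0.0419 (SD, n = 4). The 8 E2F genes, whether or not their proteins bind pocket proteins, came to 5.55 ± 0.228 times the 3 pocket protein genes. Both ratios are given for exonic length only, and each SD covers the libraries and not the choice of length. These are ratios of RNA, and protein was not measured.

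**Figure D1:**
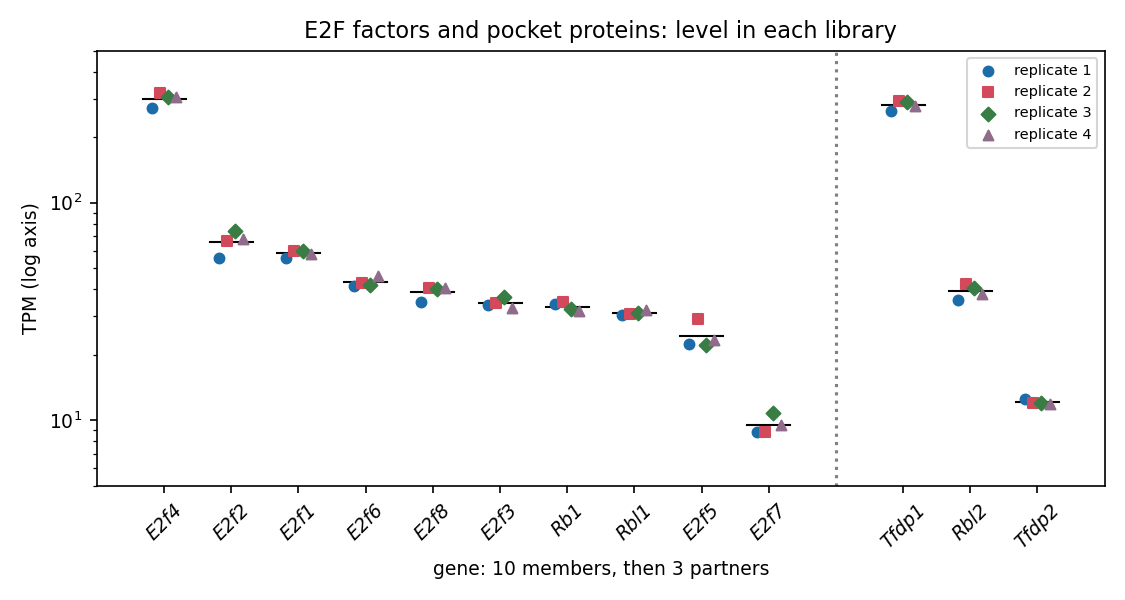
TPM on a log axis of the 10 genes, ordered by mean, and of the 3 partners Tfdp1, Rbl2 and Tfdp2 to the right of the dotted line; each point is 1 library and each bar the mean of 4. E2f4 sits between 271.4 and 319.5, above all other E2F genes, and E2f7 between 8.86 and 10.8, below all.

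The order of the 10 levels was then compared inside each library, over all 45 pairs, as differences of log2(TPM + 0.1). In 43 of the 45 pairs the same gene was higher in 4 of 4 libraries. With 4 libraries the smallest p of the exact two-sided sign-flip permutation test is 0.13, so no pair can pass 0.05, and with adjustment over these pairs and 4 contrasts with partners the smallest adjusted p was 0.130. The order ran E2f4, E2f2, E2f1, E2f6 and E2f8, then E2f3, Rb1 and Rbl1, then E2f5 and E2f7, and the first 5 and the last 2 places were held by the same genes in every library.

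Steps between neighbours in this order were of unequal size. E2f4 exceeded E2f2 by 2.18 ± 0.10 log2 and E2f5 exceeded E2f7 by 1.34 ± 0.28, the widest steps on this scale (exact permutation p = 0.13 each). E2f2 exceeded E2f1 by 0.17 ± 0.13, with a difference of 0.01 in replicate 1 and 0.15 to 0.29 in the others. E2f1 exceeded E2f6 by 0.44 ± 0.08, E2f6 exceeded E2f8 by 0.14 ± 0.08, E2f8 exceeded E2f3 by 0.18 ± 0.12 and Rbl1 exceeded E2f5 by 0.37 ± 0.19, each in 4 of 4 libraries (exact permutation p = 0.13). The 2 pairs without a common direction were E2f3 with Rb1, at 0.05 ± 0.10 (exact permutation p = 0.50), and Rb1 with Rbl1, at 0.10 ± 0.09 (exact permutation p = 0.25). For E2f3 with Rb1 the mean difference was smaller than its SD, and for Rb1 with Rbl1 the 2 were about equal. Several of the steps depended on gene length: with CPM (counts scaled to library size and not corrected for gene length) E2f8 exceeded E2f6, E2f7 exceeded E2f5 and Rb1 exceeded E2f3, and E2f4 exceeded E2f2 by 1.19 log2. With the length of the longest annotated transcript, E2f8 again exceeded E2f6 and Rb1 exceeded E2f3, the mean of E2f6 was 27.5 in place of 43.1 TPM, and E2f2 exceeded E2f1 by 0.0211 log2 (exact permutation p = 0.875). E2f5 then exceeded E2f7 by 0.63, less than the 0.95 of E2f1 over E2f6. E2f4 was first under both.

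As shares of the summed TPM of the 8 E2F genes, E2f4 took 51.8%, 53.1%, 51.7% and 52.2% in replicates 1 to 4, a mean of 52.2% ± 0.631 (SD, n = 4). The activators E2f1 to E2f3 together took 27.7% ± 0.889, E2f6 7.498% ± 0.447, and E2f7 and E2f8 together 8.43% ± 0.211. Most of the last share belonged to E2f8, at 6.78% ± 0.138, against 1.65% ± 0.144 for E2f7. E2f5 took 4.22% ± 0.475. Between libraries the share of E2f2 ran from 10.7% to 12.5%, and that of E2f5 from 3.74% to 4.85%. All these shares are given for exonic length only, and each SD covers the libraries and not the choice of length. With the longest annotated transcript, the mean of E2f6 was 27.5 in place of 43.1 TPM and that of E2f8 45.9 in place of 39.1.

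**Figure D2:**
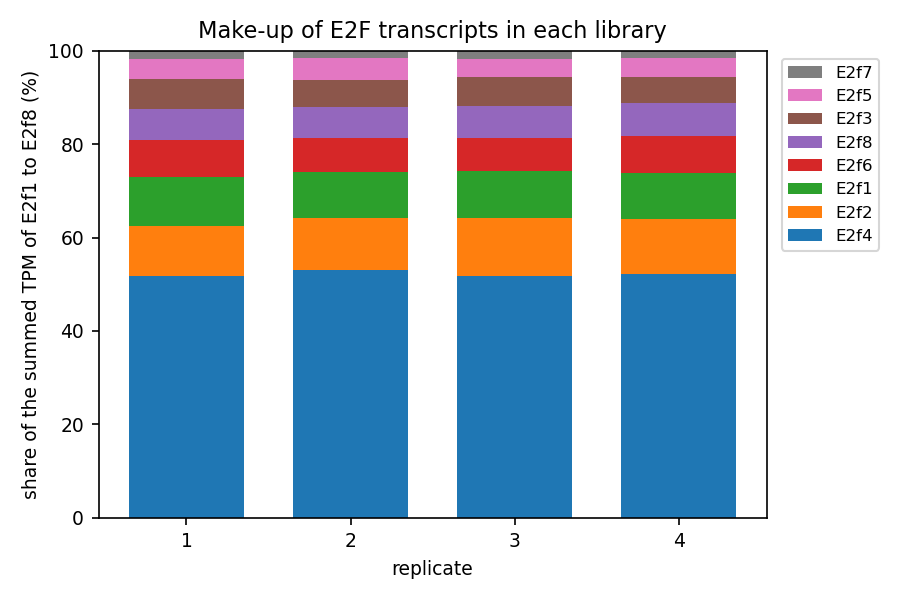
Stacked bars give the share of the summed TPM of E2f1 to E2f8 taken by each gene, in percent, in each of the 4 libraries. E2f4 is the largest block in each, at 51.7% to 53.1%, and E2f7 the smallest.

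Variation of the 10 genes between libraries was read from a fit of all 14269 genes that passed the filter on low counts, and all 10 had passed. In edgeR, with each gene's residual deviance set against the dispersion trend, 0 of the 10 varied more than the trend after Benjamini-Hochberg adjustment, against 0.463% of all genes tested. At an unadjusted p below 0.05 the count was also 0, against 5.69% of genes. A common dispersion gave 0 too, but it could not have added a call among the 10. As a coefficient of variation it was 11.45%, above the 5.995% to 10.81% that the trend gave these genes. Under the trend, the smallest unadjusted p of the edgeR fit was that of E2f2, 0.106, and every adjusted p was 0.9999. A share of 0.463% would place less than 1 gene of 10 among the calls, so a count of 0 lies near the background.

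The ratio of the highest to the lowest library, as CPM scaled with TMM, was 1.02 for E2f1, 1.05 for Rbl1, 1.11 for E2f3, E2f4 and E2f8, 1.12 for E2f6, 1.13 for Rb1, 1.21 for E2f7, 1.24 for E2f2 and 1.33 for E2f5. The median over the 10 was 1.11, beside 1.21 over all genes tested and 1.14 over the 8518 tested genes with a mean TPM in the range of the 10. E2f1 was the steadiest, at 57.2, 58.0, 57.8 and 56.7 scaled CPM in replicates 1 to 4. E2f5 was the least steady, at 13.1, 15.95, 12.01 and 12.9, high in replicate 2. E2f2 came next, at 88.9, 99.9, 109.7 and 103.7, low in replicate 1 and high in replicate 3. E2f3 was higher in both of the smallest libraries than in both of the largest, which held for 15.5% of all genes tested, and E2f4 and E2f8 were lower in both, which held for 16.2%. These counts, 1 and 2 of 10, are near the background.

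GC content and gene length moved with some of these values. Over 12159 protein-coding genes, the rank correlation of a gene's deviation from its mean with the GC content of its longest transcript was -0.26, 0.01, 0.07 and 0.26 in replicates 1 to 4, a description across genes that are not independent. With length it was -0.15, 0.02, 0.28 and -0.15, the strongest of these being that in replicate 3. GC content was 41.2% in Rb1, 42.1% in Rbl1, 46.8% in E2f5, 56.6% in E2f2 and 58.3% in E2f1. E2f2 deviated by -0.17, -0.01, 0.13 and 0.05 log2 CPM, and by 0.01, -0.02, 0.03 and -0.01 once GC content and length had been corrected for together. Their separate parts in this shift were not tested. E2f1 moved the other way, from at most 0.02 either side of its mean to 0.17, -0.01, -0.06 and -0.10. E2f5 kept its high value in replicate 2, at 0.25 before and 0.31 after. With this correction too, edgeR called 0 of the 10.

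**Figure D3:**
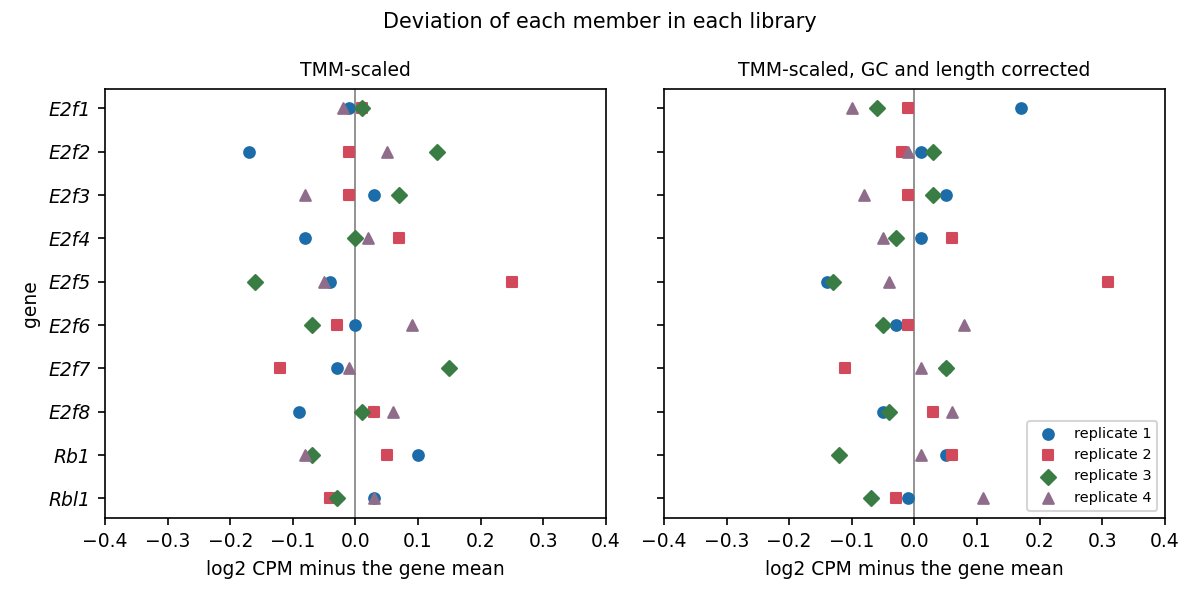
Log2 CPM of each gene in each library minus the gene's mean over 4 libraries, scaled with TMM on the left and also corrected for GC content and length on the right. E2f5 in replicate 2 stands at 0.25 and 0.31, the points of E2f2 draw together on the right, and those of E2f1 spread.

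Genes that work with the E2F factors, G1/S target genes and germline genes were measured as lists. Of these 80 genes, 67 were at 1 TPM or more in every library, against 49.9% of all protein-coding genes in the files. Among the 70 that were tested, edgeR called 0, also at 0.463% in the background. The 67 at 1 TPM or more included all 24 G1/S target genes and 1 of the 10 germline genes. This level was reached by all 9 genes of a list made up of subunits of MuvB, the core that E2f4 joins with Rbl1 or Rbl2 in DREAM, of factors that bind MuvB in place of E2f4, and of the kinase Dyrk1a, which promotes DREAM assembly, with a median of 34.4 TPM. The most abundant of the 9 were the MuvB subunit and histone-binding protein Rbbp4 at 144.5 ± 5.98 (SD, n = 4), the mitotic activator Foxm1 at 65.8 ± 7.47, Lin37 at 57.0 ± 7.21 and Mybl2, which replaces E2f4 on MuvB in dividing cells, at 55.3 ± 4.88. All 7 corepressors that pocket proteins recruit reached it, led by the deacetylases Hdac1 at 169.9 ± 3.01 and Hdac2 at 76.4 ± 1.95, the methyltransferase Suv39h1 at 74.7 ± 4.00 and Sin3b at 67.3 ± 3.51.

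Of 10 genes, 9 cyclins and kinases that phosphorylate pocket proteins and Cdc25a, a phosphatase that activates Cdk2, 9 reached 1 TPM in every library, led by Cdk4 at 391.1 ± 17.5 (SD, n = 4), Ccnd2 at 245.2 ± 13.8, Ccna2 at 185.8 ± 6.32 and Ccne1 at 123.5 ± 3.82. The exception was the D cyclin Ccnd1, at 0.301, 0.315, 0.704 and 0.252 TPM. Of the 7 inhibitors of these kinases, 4 reached 1 TPM in every library. Cdkn1a, the best known p53 target, stood highest, at 885.1 ± 41.0. The others were Cdkn2d at 109.3 ± 3.81, Cdkn1b at 30.5 ± 3.06 and Cdkn2c at 23.0 ± 2.94. Cdkn2b was at 0.127, 0, 0.388 and 0.340 TPM, from 2, 0, 7 and 14 counts. Cdkn1c and Cdkn2a, named after their values were seen, lay on both sides of 1 TPM, at 0.681 to 1.44 and 0.227 to 1.76.

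The G1/S target genes, textbook targets of E2F at the start of S phase, stood higher than the factors. All 24 reached 1 TPM in every library and their median was 109.9 TPM, beside 36.8 for the 10 E2F and pocket protein genes. It was 20.1 for all genes tested and 31.9 for the 10868 protein-coding genes at 1 TPM or more in every library. Mcm3, Pcna, Rrm2 and Mcm5 led the G1/S list, and each had a higher mean than E2f4. Of the 24 G1/S target genes, 20 had a promoter window and 9 of them (45%) held an E2F word. The share was 5.00% over protein-coding genes with a window and at 1 TPM or more in every library. Since the list was made up of known E2F targets, its share is no finding of these data. A pair of examples shows the words beside those of the E2F genes above.
Mcm3, E2F word 20 bases into the transcript, chr1:20820275-20820304, minus strand: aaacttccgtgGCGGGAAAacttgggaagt
Mcm5, E2F word 153 bases before the start, chr8:75109345-75109374, plus strand: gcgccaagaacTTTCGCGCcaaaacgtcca

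The 10 partners of E2f6 in PRC1.6 also all reached 1 TPM in every library. Their means ran from 5.30 to 106.6 TPM, with a median of 36.7, beside 31.9 for the expressed protein-coding genes. E2f6 itself stood at 43.1 TPM. With the length of the longest annotated transcript E2f6 stood at 27.5, which cannot be set beside these medians, given for exonic length only. The most abundant partners were Wdr5 at 106.6 ± 5.14 (SD, n = 4), Max at 105.0 ± 3.36, L3mbtl2 at 64.0 ± 3.96 and Yaf2 at 43.7 ± 2.54. The germline genes, several of which are known to be silenced by E2f6, stood at the other end. Of 10, only the meiotic cohesin gene Stag3 reached 1 TPM in every library, at 1.65, 1.31, 2.25 and 1.98, and 9 were below 1 TPM in all 4. Smc1b, Tuba3a, Mael, Stk31 and Tdrd1 had 0 counts in every library, which allows up to 3 counts, or 0.0252 CPM in the deepest library and 0.0858 in the shallowest, for counting error only. Ddx4 stood at 0.187 to 0.654 TPM and Sycp3 at 0 to 0.268. Tuba3a and Tuba3b are close copies of each other, so their counts are uncertain. Slc25a31, an E2f6 target in many tissues, had 0, 0, 6 and 1 counts in replicates 1 to 4, and its window held an E2F word. Of the 10 germline genes, all with a window, 2 (20%) held one, against 2.60% of all genes with a window. Since several of the 10 are known targets of E2f6, this share is no finding of these data. The word of Slc25a31 is shown as an example.
Slc25a31, E2F word 19 bases into the transcript, chr3:40708878-40708907, plus strand: tcagcgcccgcTTTCCCGCcagggtaaagc

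**Figure D4:**
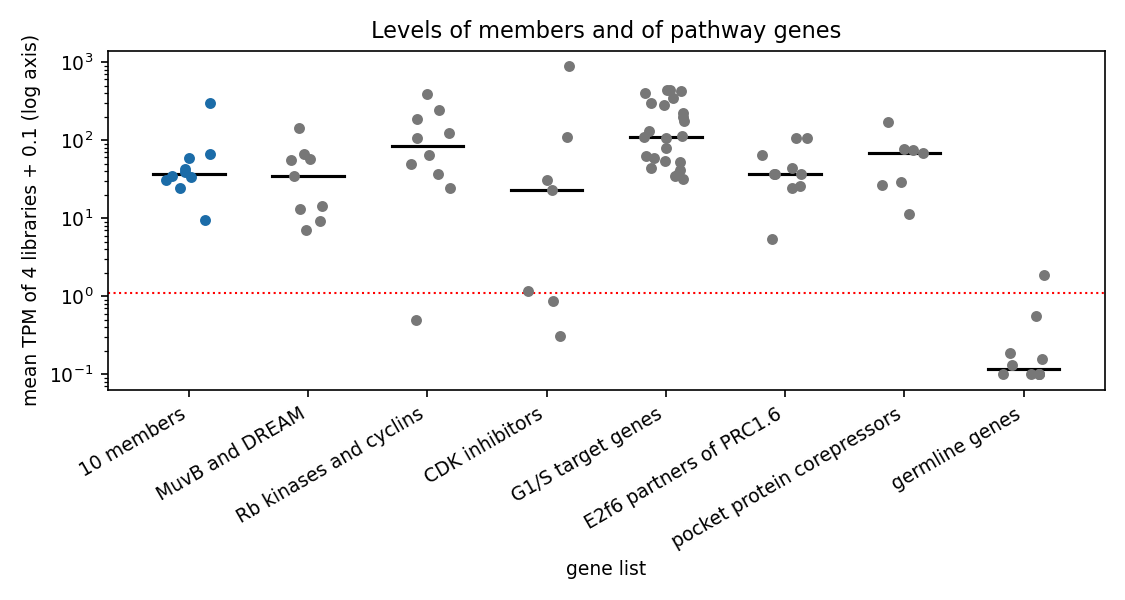
Mean TPM of 4 libraries + 0.1 on a log axis for the 10 E2F and pocket protein genes and for 7 lists; each point is 1 gene, each bar the median, and the dotted line marks 1 TPM. The median of the 24 G1/S target genes, 109.9, is above that of the 10 genes, 36.8, and 9 of the 10 germline genes lie below the line.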

How the data were processed

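RNA of 4 libraries was analysed. The authors deposited raw counts of read pairs per gene, made with featureCounts 1.4.6-p4 on exons of GENCODE M13 (mm10), with the reverse strand setting and both ends mapped, per the file headers. The headers name STAR alignments, with a version not given in the sources used here. Multiply mapped reads and reads shared by several genes were not counted. Exons of the 10 genes overlapped no other gene on the same strand. Antisense overlap was 14.9% of exonic bases in Rb1, 11.2% in E2f8 and at most 1.46% in the others of the 10. In the partner Rbl2 it was 20.97%. Symbols, and the length and GC content of the longest transcript, came from GENCODE M21 (50376 of 50600 genes matched).

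TPM was computed from counts and exonic length. Pairs of genes were compared inside each library on log2(TPM + 0.1) with the exact sign-flip permutation test. Variation was tested with edgeR 4.0.16 in R 4.3.3 (filterByExpr, TMM, intercept only, trended dispersion, Benjamini-Hochberg at 0.05). On simulated counts for 14269 genes, with 200 raised in 1 library, this test recovered 43.0% at 1.5-fold, 72.5% at 2-fold and 93.5% at 4-fold, and 0 genes were called when none was changed. The correction for GC content and length used a loess surface per library. Alternatives are given in the closing section.

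The genes named besides the 10 and the cell type markers are Rbl2, Tfdp1, Tfdp2 and, of each list, the 4 most abundant, those below 1 TPM in every library and those called variable. The members and lists were chosen with earlier results of these data known. No genes of like pattern were sought, since 4 libraries are too few for a correlation.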

Additional observations from a re-analysis of the deposited data

Results flagged for a closer look

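Each of 66 values with 4 libraries was examined for 1 library far from the other 3 relative to the whole range, and 5 met this. For independent values with a normal spread, chance flags about 1 in 20, or 3.3. That rate is only rough here, since Tuba3b, with counts in replicate 4 only, meets the criterion whatever that count is. Among the 10 genes, E2f8 in replicate 1 was low, at 34.96 TPM against 40.3 to 40.7 in the others. The log2 difference of Rbl1 minus E2f5 in replicate 2 was low, at 0.0768 against 0.44 to 0.49, where E2f5 was at its highest. Ccnd1 in replicate 3 was high, at 0.704 TPM against 0.252 to 0.315, from 43 counts. The germline genes Slc25a31 in replicate 3, at 0.2175 TPM from 6 counts against 0 to 0.0159, and Tuba3b in replicate 4, at 0.1335 TPM from 7 counts against 0, were also high.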

How the results depend on the processing

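With CPM in place of TPM, 10 of the 45 pairs turned, and with the longest annotated transcript 5 did. With CPM, the log2 difference of E2f3 minus Rb1 was -0.28, of E2f4 minus Tfdp1 -0.49, of E2f5 minus E2f7 -0.98 and of E2f6 minus E2f8 -1.02. With the longest transcript it was -0.41 for E2f3 minus Rb1, -0.00426 for E2f4 minus Tfdp1 and -0.73 for E2f6 minus E2f8. These settings change the length used, and the longest transcript also changes the annotation, from GENCODE M13 to M21. In E2f6 the longest transcript, 3018 bases, was longer than the exonic length of 2421 on which reads were counted. In E2f3 it was 5097 against 4794. The part of this mismatch in the turned pairs was not tested. No pair turned with a pseudocount of 1 or without any single replicate, where 43 or 44 pairs kept one direction. The number of variable genes, 66 of all tested, was 955 with a common dispersion, 41 to 68 without 1 replicate (41 without replicate 1) and, as an alternative chosen after seeing the data, 20 without replicates 1 and 3 together. The cause was not tested. None of these fits called any of the 10 genes. Without any single replicate, the 13 levels of the 10 genes and 3 partners stayed within 0.933 to 1.05 times the values given. The 67 list genes at 1 TPM were also 67 at 0.5 CPM and without any 1 replicate. No paired analysis was possible because the labels give 1 group. Depth limits the germline genes and Cdkn2b, which rest on 0 to 55 counts outside Stag3.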
